A study of Mus musculus with 11 samples.

Results

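Complement genes were examined in mouse heart progenitor cells and in a muscle cell line. The 9 genes were C3, C4b, C1qb, C1s, C1r, Cfb, Cfhr2, Serping1 and Cd55, among 27567 genes named on the array. They were found by name, by older synonym or by transcript accession, and 14 probes represented them. Cfhr2 was found by its accession alone, because the array names that probe after a cDNA clone. C1s and C1r are now called C1s1 and C1ra. Their levels were read on 11 one-colour Agilent arrays. The KO-labelled cells (5 arrays) were cardiac progenitors from mice null for beta-sarcoglycan, a membrane protein of muscle, the WT-labelled cells (3 arrays) were cardiac progenitors from wild-type mice, and C2C12 (3 arrays) is a mouse myoblast line, used as the control for muscle differentiation. The series calls the progenitors mesoangioblasts, vessel-associated cells, and they came from the atrium, ventricle or aorta. Mouse age, cell passage and the state of the cells at harvest are not given in the sources used here. Of 7 pericyte and mesoangioblast markers, 5 were above background on every KO-labelled, 4 on every WT-labelled and 5 on every C2C12 array. Their summed levels did not overlap between these groups and are given with the other marker lists.

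Arrays of KO ventricle, KO aorta and C2C12 on slides 1 and 3 differed by less than the noise between repeated spots (0.577 to 0.685 of it) and each pair was counted as 1 sample. Every other pair of arrays within a group differed by at least 2.53 times that noise. This left 3 KO-labelled samples, 3 WT-labelled samples and 2 samples of C2C12, and within a genotype each sample stands for another region. Whether samples are independent mice or cultures is not given in the sources used here, so the spread behind each p-value is that between the samples at hand and may be technical. Levels are on the log2 scale, as processed signal relative to the array's own 75th percentile (0 on this scale), and "above background" is the scanner software's own mark. Between 49.0 and 62.0% of probes were above background on an array. The 3 slides bear on every comparison of genotypes, because none held both KO and WT arrays. A fit with slide as a block compares the genotypes through the C2C12 arrays that ran beside them, and its values are given as slide-blocked.

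The labels were checked with Sgcb, the gene of beta-sarcoglycan. Its level was 2.99, 2.34 and 2.64 in KO-labelled ventricle, aorta and atrium, against 2.2, 1.82 and 2.07 in the same regions of the WT-labelled hearts. The null mutation therefore did not show as a lower level, and the difference of 0.63 (SE 0.21) had an adjusted p of 0.0709 in limma. The probe may lie outside the deleted part, in which case it checks nothing. The words KO-labelled and WT-labelled are used throughout because of this, and each direction rests on the labels. Of the genes that mark skeletal myoblasts (Myod1, Myf5, Myog, Cdh15, Des and Chrna1), 6 of 6 were above background on every KO-labelled and every C2C12 array, and 0 of 6 were so on every WT-labelled array. Their summed level was 5.53 to 7.22 in KO-labelled samples, -3.32 to -2.78 in WT-labelled samples and 6.14 to 7.25 in C2C12. Genotype thus moved together with a myoblast marker set, and the part of this difference in cell state in the complement results was not tested. Fewer cells of a type and less RNA per cell cannot be told apart in such bulk samples.

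Complement is a cascade of plasma and cell-surface proteins that tags particles for uptake, recruits leukocytes and can lyse membranes. The classical pathway starts when C1q binds its target and activates the serine proteases C1r and C1s, which cleave C4 and C2, while the alternative pathway uses factor B, and both converge on cleavage of C3. Regulators hold the cascade in check, among them the C1 inhibitor (Serping1) and the membrane protein decay-accelerating factor (Cd55). Liver makes most plasma complement, but fibroblasts, macrophages and other tissue cells make components locally.

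Stretches around the transcription start (250 bases before to 50 after it) are shown for 3 genes that were lower in the KO-labelled samples and for Cfhr2, which was not lower there. For C1s1 the table has 2 starts, of which 1 is shown. They come from RefSeq on build GRCm38.p6, whose tables held 6 of the 9 genes, and read 5′ to 3′ along the gene's strand. Capitals mark matches to any of 4 motifs searched on both strands.
C3 (chr17:57228087-57228386, minus strand): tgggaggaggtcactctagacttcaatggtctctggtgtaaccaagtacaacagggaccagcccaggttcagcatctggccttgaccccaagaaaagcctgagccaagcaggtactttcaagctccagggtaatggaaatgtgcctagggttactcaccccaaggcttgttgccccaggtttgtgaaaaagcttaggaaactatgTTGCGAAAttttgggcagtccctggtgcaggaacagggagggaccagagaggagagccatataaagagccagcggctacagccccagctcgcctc
C1ra (chr6:124512371-124512670, plus strand): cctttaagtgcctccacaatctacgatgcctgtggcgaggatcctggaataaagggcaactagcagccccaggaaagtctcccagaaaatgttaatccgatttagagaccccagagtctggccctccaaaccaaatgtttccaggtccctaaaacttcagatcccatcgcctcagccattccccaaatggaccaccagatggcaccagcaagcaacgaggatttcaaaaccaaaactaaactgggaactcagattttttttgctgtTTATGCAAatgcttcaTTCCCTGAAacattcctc
C1s1 (chr6:124542310-124542609, minus strand): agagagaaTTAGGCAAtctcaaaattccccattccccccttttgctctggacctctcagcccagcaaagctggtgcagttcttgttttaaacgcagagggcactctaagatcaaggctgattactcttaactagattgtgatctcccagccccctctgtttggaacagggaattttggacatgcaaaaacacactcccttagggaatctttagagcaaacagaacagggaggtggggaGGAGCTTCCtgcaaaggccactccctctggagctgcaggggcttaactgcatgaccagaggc
Cfhr2 (chr1:139858650-139858949, minus strand): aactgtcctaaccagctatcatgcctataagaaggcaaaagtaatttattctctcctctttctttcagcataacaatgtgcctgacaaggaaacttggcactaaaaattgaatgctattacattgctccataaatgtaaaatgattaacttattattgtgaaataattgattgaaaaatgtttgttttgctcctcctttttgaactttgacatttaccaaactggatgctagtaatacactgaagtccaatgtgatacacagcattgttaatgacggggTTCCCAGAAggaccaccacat
The C3 stretch held 1 match to the C/EBP pattern TTGCNNAA, which starts 45 bases before the transcription start. That pattern was present in 10.8% of 32851 RefSeq promoter windows of the same length. The C1ra stretch also held a C/EBP match, beside a match to the STAT pattern TTCNNNGAA (8.3% of windows), both inside the transcribed part. The C1s1 stretch held a C/EBP match and a match to the kB pattern GGNNNTTCC (18.5% of windows). The window of the other C1s1 start, not shown, held the kB match and no C/EBP match. The C1qb stretch, not shown, held a kB match and no C/EBP match, and C1qb was also lower in the reported fit. The Cfhr2 stretch held a single STAT match, and the interferon response pattern GAAANNGAA (8.56% of windows) occurred in none of the 4 stretches. No motif matches of these kinds overlapped in them. A match describes letters in a window and says nothing of binding.

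C3, the protein on which all activation routes converge, was near the levels of C2C12 in the KO-labelled samples and far higher in the WT-labelled ones. Its probe (mm8 chromosome 17, 56889328 to 56889387, minus strand) read -4.41, -4.43 and -4.27 in KO-labelled ventricle, aorta and atrium, against 2.04, 3.85 and -0.72 in WT-labelled ventricle, aorta and atrium. The C2C12 samples read -3.79 and -4.31. The KO-labelled values lay in a narrow band around the lower C2C12 sample, and all WT-labelled values lay above both groups. On the linear scale of the scanner this was 47.8 to 55.2 units in KO-labelled samples, 674.5 to 16540 in WT-labelled samples and 54.5 to 72.3 in C2C12. The means were -4.37 ± 0.09 in KO-labelled and 1.73 ± 2.3 in WT-labelled samples (SD, n = 3 each), a difference of -6.09 (SE 1.08, limma adjusted p = 0.00906) or 68.3-fold. It was -7.32 without the WT-labelled atrium (limma adjusted p = 0.000874) and -5.03 without the WT-labelled aorta (limma adjusted p = 0.0177). The slide-blocked difference was -6.61 (SE 2.18) with an adjusted p of 0.166, so the size held and the call did not. With normexp background correction it was -4.47 (limma adjusted p = 0.0193). The KO-labelled signal was near background, so the size of the difference depends on how background is handled.

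The other C3 probe (56910450 to 56910607), which lies 21062 bases away toward the 5′ end of the gene, was not above background on any array. The C3 result therefore rests on 1 probe.

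C4b encodes complement C4, the substrate of C1s. Its probe (chromosome 17, 34337472 to 34337531) read -4.08, -3.73 and -3.95 in KO-labelled ventricle, aorta and atrium, against -2.03, -1.05 and -2.92 in the WT-labelled regions in the same order. In C2C12 it read -3.67 and -4.19, just above and just below the KO-labelled values. The KO-labelled samples were all below the WT-labelled ones, and the difference was -1.92 (SE 0.46, limma adjusted p = 0.0258). The slide-blocked value was -2.44 (adjusted p = 0.22). The call was also lost with normexp correction, where the difference was -0.9 (limma adjusted p = 0.182), and without KO ventricle, KO aorta, KO atrium or WT ventricle, where it ran from -2.01 to -1.84 with limma adjusted p of 0.0607 to 0.0811. C4b has a near-identical neighbour, C4a, whose own probe was not above background on any array. Signal of the C4b probe may still come in part from that copy.

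Cfb encodes factor B, the protease of the alternative pathway. Its probe (chromosome 17, 34464613 to 34464969) was above background on 0 of 5 KO-labelled, 1 of 3 WT-labelled and 0 of 3 C2C12 arrays. The KO-labelled samples read -7.36 to -6.6, against -5.5 in WT ventricle, -5.15 in WT atrium and -3.83 in WT aorta, the one array above background and the sample with the highest C3. C2C12 read -7.15 to -6.8. With so few arrays above background Cfb was not tested, and values below background have no order.

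**Figure D1:**
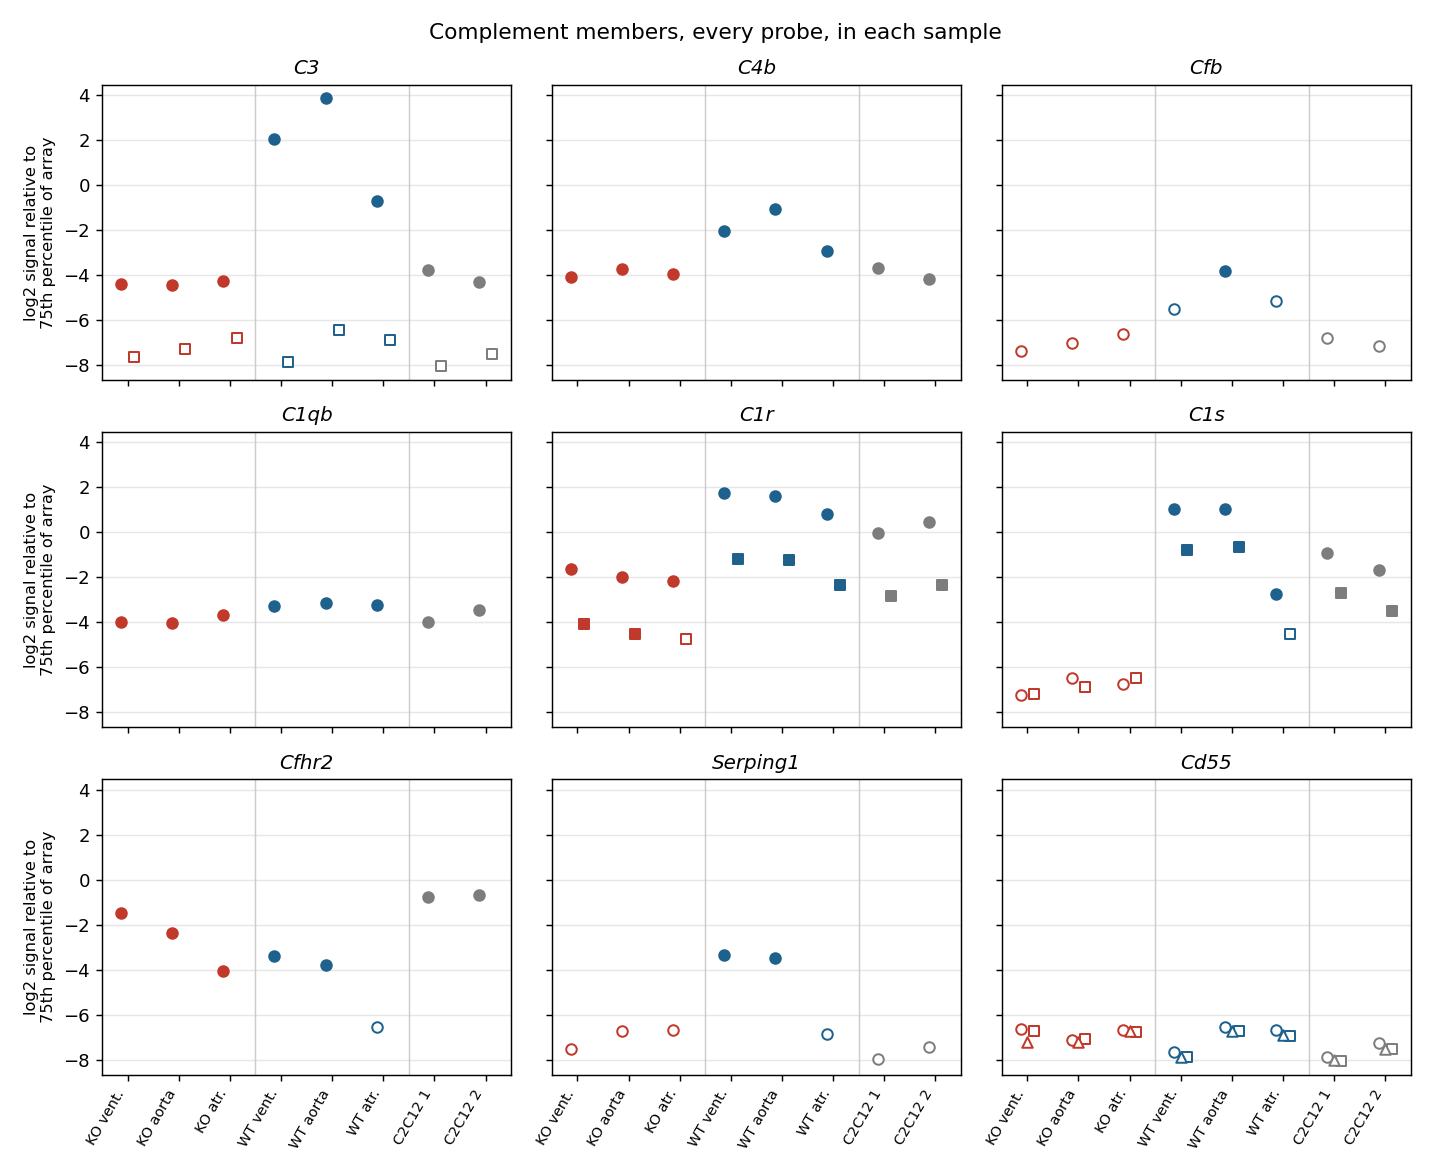
Level of every probe of the 9 genes in 3 KO-labelled samples, 3 WT-labelled samples and 2 of C2C12, as log2 signal relative to the array's 75th percentile; each point is 1 sample, marker shapes separate the probes of a gene, and open markers were not above background on any array of the sample. The bright C3 probe spans -4.43 to 3.85 and the other C3 probe is open throughout, C1s is open in all KO-labelled samples, and all Cd55 markers are open.

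The C1 complex was uneven. C1r, the protease that activates C1s, was above background in all samples. Its tested probe (chromosome 6, 124488653 to 124488712, plus strand) read -1.62, -1.97 and -2.15 in KO-labelled ventricle, aorta and atrium, against 1.73, 1.61 and 0.83 in WT-labelled ventricle, aorta and atrium. C2C12, at -0.05 and 0.48, lay between the genotypes without overlap. The difference between KO-labelled (-1.91 ± 0.27) and WT-labelled samples (1.39 ± 0.49, SD, n = 3 each) was -3.3 (SE 0.29, limma adjusted p = 0.000609), or 9.88-fold. It stayed called without any 1 of the 6 samples (-3.59 to -3.13, limma adjusted p up to 0.0054). The slide-blocked value was -2.77 (SE 0.58) with an adjusted p of 0.0506, just past the threshold. Another probe (124540910 to 124540969), named C1r on the array but described there as the C1rb copy, read -4.75 to -4.05 in KO-labelled and -2.32 to -1.18 in WT-labelled samples. It differed by -2.87 (limma adjusted p = 0.00255 over every probe), in the same direction. Signal from the near-identical copies cannot be told apart.

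C1s, the protease that cleaves C4 and C2, was not above background on any KO-labelled array (0 of 5). Its probe (chromosome 6, 124496429 to 124496488, minus strand), 7716 bases from the C1r probe, read -7.24, -6.49 and -6.72 in KO-labelled ventricle, aorta and atrium, against 1.03 in WT ventricle, 1.05 in WT aorta and -2.72 in WT atrium. In C2C12 it read -0.91 and -1.68, inside the WT-labelled range. Set against the lowest signal measurable on each KO-labelled array, the KO-labelled samples had at least 26.8-fold lower C1s than the WT-labelled ones. The difference as read was -6.6 (limma adjusted p = 0.00582). C1s passed the filter only through the WT-labelled arrays, which fixed this direction, so the p is no separate evidence of it. Such a bound uses the array's lowest signal above background in place of a dimmer reading in the dim group. Measured means were -6.81 in KO-labelled and -0.21 in WT-labelled samples. The slide-blocked adjusted p was 0.119, and with normexp correction the fitted difference was -3.15 (limma adjusted p = 0.0457), against -6.6 without it. The other C1s probe (124497068 to 124497127) showed the same order, with 0 of 5 KO-labelled and 2 of 3 WT-labelled arrays above background and a bound of at least 7.87-fold, but too few arrays above background to be tested. C1s2, a near-identical copy on the same chromosome, was above background on 0 of 5 KO-labelled and 2 of 3 WT-labelled arrays.

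C1qb encodes a chain of C1q, the recognition part of C1, which tissue macrophages make in quantity. Its probe (chromosome 4, 136152739 to 136152798) read -3.99, -4.01 and -3.66 in KO-labelled ventricle, aorta and atrium, against -3.29, -3.15 and -3.21 in the WT-labelled regions, and -4.0 and -3.45 in C2C12. The genotypes did not overlap, and 1 C2C12 sample lay among the KO-labelled values and the other between the genotypes. The difference was -0.68 (SE 0.15, limma adjusted p = 0.0203). It was not called in 10 other fits. These included the slide block, at -0.13 (adjusted p = 0.882), and normexp correction, at 0.0. They also included median scaling, at -0.57 (limma adjusted p = 0.0726), quantile normalization, at -0.6 (0.0529), and the fits without KO ventricle, KO aorta, WT ventricle or WT aorta, at -0.71 to -0.61 (limma adjusted p 0.0531 to 0.0814). The partner chains C1qa and C1qc, of the 3 C1q chains on the array, were not above background on any array.

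Of 12 macrophage markers, Ptprc, Itgam, Adgre1, Tyrobp and Laptm5 were not above background on any array, and the summed level of the list was 0.54 to 1.09 in KO-labelled samples, 0.75 to 1.88 in WT-labelled samples and 0.45 to 0.76 in C2C12. Lyz2, a lysozyme of macrophages, read -6.85 to -5.79 in KO-labelled samples (0 of 5 arrays above background), against -0.03 to 1.0 in WT-labelled ones. Of 6 tested macrophage markers it was the 1 called, with 0 higher. Without a call, Cd14, Cd53 and Cd68 differed by 0.82, 0.86 and 0.18, and Csf1r and Fcer1g by -1.4 and -0.77. The part of Lyz2 in the C1qb difference was not tested. Of 7 hepatocyte markers on the array, 7 were not above background in any group. The summed level of 8 fibroblast markers was 7.98 to 8.14 in KO-labelled samples, 7.16 to 7.96 in WT-labelled samples and 8.16 to 8.38 in C2C12, with 3 higher and 3 lower of 7 tested between the genotypes. The higher ones, Col1a1, Col1a2 and Col3a1, differed by 0.77, 0.91 and 2.02. Among the lower ones Pdgfra differed by -4.11 (limma adjusted p = 0.00102) and Dcn by -4.165. Thy1, also lower, read -7.21 to -4.88 in KO-labelled samples, not above background, against 4.72 to 6.06 in WT-labelled ones. Of 6 endothelial markers Pecam1, Cdh5 and Kdr were not above background on any array, and both tested ones, Erg and Egfl7, were lower. The summed level of the endothelial list was -1.12 to -0.51 in KO-labelled samples, 0.16 to 1.69 in WT-labelled samples and -1.03 to -0.76 in C2C12. For the pericyte and mesoangioblast list it was 4.28 to 4.7 in KO-labelled samples, 3.23 to 3.62 in WT-labelled samples and 5.52 to 5.56 in C2C12. Of its 5 tested markers 3 were higher in KO-labelled samples and 0 lower. Beside the counts of every list here, 13.7% of all genes tested were higher and 16.1% lower. Lyz2, Thy1 and Erg passed the filter only through the WT-labelled arrays, which fixed their direction. The part of these lists in the complement differences was not tested.

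Cfhr2, counted here with the regulators, was not lower in the KO-labelled samples. Its probe (chromosome 1, 141627249 to 141627308) read -1.48, -2.39 and -4.08 in KO-labelled ventricle, aorta and atrium, against -3.39 and -3.81 in WT ventricle and aorta and -6.56, not above background, in WT atrium. C2C12 read highest, at -0.78 and -0.7. KO atrium lay below both measured WT-labelled samples, so the genotypes overlapped. The difference of 1.94 (SE 1.02) had a limma adjusted p of 0.206. In each region the KO-labelled sample was the higher one, and with region as a block the same difference had a limma adjusted p of 0.0133, while the slide-blocked value was 2.03 (adjusted p = 0.679). Cfhr2 lies in a cluster of closely related genes on chromosome 1, so signal from other transcripts of the cluster cannot be told apart from its own.

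Serping1, the inhibitor of C1r and C1s, was not above background on any KO-labelled array, at -7.52 to -6.7 (chromosome 2, 84566650 to 84568156). Its level in the WT-labelled samples was -3.36 in ventricle, -3.47 in aorta and -6.86 in atrium, and only ventricle and aorta were above background. C2C12 read -7.97 to -7.44, not above background, and Serping1 had too few arrays above background to be tested. Cd55 was not above background on any of the 11 arrays with any of its 3 probes, so no statement on its level is possible beyond that limit. One of these probes (chromosome 1, 132218993 to 132219052) lies apart from the other Cd55 probes (132267894 to 132275880) in the array's coordinates.

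Read together, 6 of the 9 genes passed the filter for KO-labelled against WT-labelled, 0 were higher, also at an unadjusted p under 0.05, 5 were lower and Cfhr2 was not called. Over all 15002 genes tested, 13.7% were higher and 16.1% lower. The place of C1s among the lower genes was set by the filter, so counts that hold it are a description. The median difference was -2.61 over the 6 and -1.92 over the 5 without C1s, of which 4 were lower, with -0.06 over all genes tested. Every KO-labelled sample lay below every WT-labelled one for 5 of the 6, C1s included, as for 27.3% of all genes tested. With every probe kept, 6 of 7 tested probes of the 9 genes were lower, against 15.8% of all probes. Among the lower ones were the C1s probe and the probe described as the C1rb copy. With the slide block 0 of 6 were called by limma (2.42% of all genes were lower), and 4 had an unadjusted p under 0.05, as had 3117 of all 15807 genes. The slide-blocked differences of the 5 lower genes kept their sign, that of C1s set by the filter and that of C1qb at -0.13.

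The comparisons with C2C12 share their C2C12 samples and are given side by side. C3 differed by -0.32 between KO-labelled samples and C2C12 (limma adjusted p = 0.966) and by 5.77 between WT-labelled samples and C2C12 (SE 1.13, limma adjusted p = 0.00941). C4b differed by 0.01 in the KO-labelled comparison (limma adjusted p = 0.998) and by 1.93 in the WT-labelled one (limma adjusted p = 0.027). The WT-labelled call of C3 was lost without either C2C12 sample (limma adjusted p = 0.0506 and 0.0654). That of C4b was lost likewise (0.0796 and 0.157). It was also lost without WT ventricle (1.94, limma adjusted p = 0.0641), with normexp (1.09, limma adjusted p = 0.17) and with the slide block (2.19, limma adjusted p = 0.0812). A p that misses the threshold does not show that KO-labelled cells and C2C12 were alike, and the SE of the C3 difference was 1.13.

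C1r was the only 1 of the 6 tested genes called between KO-labelled samples and C2C12, at -2.13 (SE 0.32, limma adjusted p = 0.034), where 0.588% of all genes were lower. It was also higher in WT-labelled samples than in C2C12, at 1.17 (SE 0.32, limma adjusted p = 0.0351). Neither call held without each single sample. The KO-labelled difference then ran from -2.4 to -1.87 with limma adjusted p of 0.0124 to 0.235, and the WT-labelled difference from 0.91 to 1.45 with 0.00635 to 0.205. C1s was at least 12.7-fold lower in KO-labelled samples than in C2C12 by the bound. The difference as read was -5.52 and was not called (limma adjusted p = 0.0769). Of 8 fits without 1 sample, 1 called it, the fit without the WT-labelled atrium (limma adjusted p = 0.00201). C1s passed this filter only through the WT-labelled and C2C12 arrays, so that p is no separate evidence of the direction. WT-labelled samples and C2C12 differed in C1s by 1.08 (SE 1.09, limma adjusted p = 0.512). C1qb was called in neither comparison (limma adjusted p = 0.841 and 0.112).

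Cfhr2 averaged -4.59 ± 1.72 in WT-labelled samples (SD, n = 3) and -0.74 ± 0.06 in C2C12 (SD, n = 2). It was lower in the WT-labelled samples by a log2 difference of -3.85 (SE 1.06, limma adjusted p = 0.0348). The call was lost without a filter (limma adjusted p = 0.052), without either C2C12 sample (0.138 and 0.146), without KO aorta (0.0552), without WT aorta (0.0562) and with the slide block (0.14). Between KO-labelled samples and C2C12 it differed by -1.91 (SE 1.06, limma adjusted p = 0.537). In all, 3 of the 6 tested genes were higher in WT-labelled samples than in C2C12 (C3, C4b and C1r) and 1 was lower, against 13.8% higher and 13.3% lower over all genes tested. With the slide block 0 of the 6 were called by limma in either comparison, where 2 for KO-labelled and 3 for WT-labelled samples had an unadjusted p under 0.05. Over all 15807 genes tested, 1314 and 4574 had such a p. The slide-blocked C3 difference between WT-labelled samples and C2C12 was 6.03 (adjusted p = 0.0517).

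**Figure D2:**
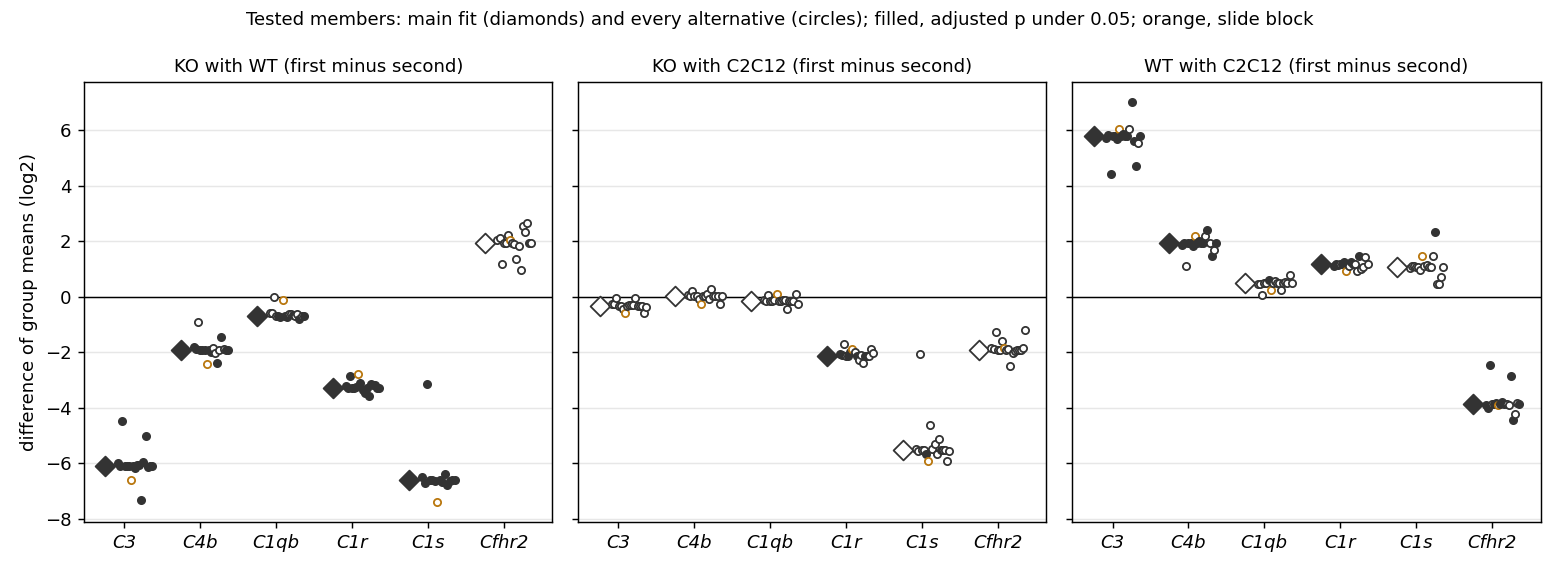
Difference of group means (log2, first group minus second) of the 6 tested genes in 3 comparisons, from the fit reported (diamonds) and every alternative (circles); filled symbols had an adjusted p under 0.05 and orange is the slide block. For KO-labelled against WT-labelled, C3, C4b, C1r and C1s stay below 0 in all fits while the slide-blocked symbols are open, and C1qb reaches 0.0.

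Levels differed between heart regions mainly within the WT-labelled samples. C3 was 23.7-fold higher in WT aorta than in WT atrium (4.57 on the log2 scale), and C4b 3.66-fold, in the order aorta, ventricle, atrium for both genes. C1s was 13.6-fold higher in WT aorta than in WT atrium, with ventricle and aorta at 1.03 and 1.05, and C1r was 1.87-fold higher in WT ventricle than in WT atrium. The KO-labelled samples gave no such spread for C3, which stayed within -4.43 to -4.27, near background, where a spread may not show. Cfhr2 did vary there, 6.06-fold from ventricle to atrium, and was lowest in atrium in both genotypes. With 1 sample per genotype and region these are single values, and region shares its array position on every slide.

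Over both genotypes, atrium minus the mean of ventricle and aorta was -1.76 for C3 (SE 1.02), -1.81 for C1s as read, -0.71 for C4b, -0.6 for C1r (SE 0.2) and -2.55 for Cfhr2 (SE 0.27). None of the 6 was called by limma (0 genes, 0.0% of 15002), although 2 of the 6 and 1201 of all genes had an unadjusted p under 0.05. The lowest adjusted p among the 6 was 0.534. Between ventricle and aorta 0.0% of genes were called, 440 had an unadjusted p under 0.05, and none of the 6 did. The WT-labelled atrium array stood apart from the other WT-labelled arrays by 6.4 and 6.27 times spot noise, against 2.53 between those. Without it, C3, C4b, C1qb and C1r all remained called for KO-labelled against WT-labelled, while C1s then had too few arrays above background to be tested.

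A wider set of 47 complement genes gave the setting, 46 of them found on the array by name, synonym or accession. C1rb was not found so, and the probe described as its copy is counted under C1r. On at least 1 array 24 of the 46 were above background, and 16 were tested for KO-labelled against WT-labelled. Of these 1 was higher, 6 were lower and 9 were not called, where 13.7% of all genes tested were higher and 16.1% lower. Colec11, Clu and Cd93, described below, are among the 6 and passed the filter through the WT-labelled arrays, which set their direction. Counts that hold them are a description. The median difference over the 16 was -0.56, with -0.06 over all genes tested. With normexp correction 1 of the 16 was higher and 2 were lower, where 1541 and 1252 of all 15002 genes were. The median difference was then -0.07, with 0.03 over all genes tested. The 22 never above background included the C1q chains C1qa and C1qc, the mannose-binding lectins Mbl1 and Mbl2, factor D (Cfd), the terminal components C7, C8a, C8b and C9, and the regulators Cd46, Vtn and Susd4.

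Of the recognition molecules 2 of 8 were tested. Colec11, a collectin that starts the lectin pathway, read -6.41 to -5.28 in KO-labelled samples, none above background, against -4.57 to -3.59 in WT-labelled samples. By the bound it was at least 1.73-fold lower, and the difference as read was -1.8 (limma adjusted p = 0.0182). It passed the filter only through the WT-labelled arrays, which fixed its direction. Among the proteases 2 of 3 tested were lower, where 16.1% of all genes tested were. Masp1, the protease bound to those lectins, read 1.55 to 1.83 in KO-labelled samples against 2.81 to 3.24 in WT-labelled samples, a difference of -1.25 (SE 0.17, limma adjusted p = 0.00372). A dimmer Masp1 probe (chromosome 16, 23395094 to 23395153) read -4.63 to -3.99 against -3.85 to -2.82. The remaining Masp1 probes (23364870 to 23364929 and 23367721 to 23367780) were above background on 0 of 5 KO-labelled and 0 of 3 WT-labelled arrays. The call thus rests on part of the gene's probes. C1rl, a relative of C1r whose probe lies near it on chromosome 6, differed by -0.98 (SE 0.14, limma adjusted p = 0.00354). Masp2 differed by -0.02 (limma adjusted p = 0.948). Factor I (Cfi), which inactivates C3b, was not tested. It was above background on 0 of 5 KO-labelled arrays and, at -2.93 and -2.92, on WT ventricle and WT aorta, the same arrays as Serping1.

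None of the 2 tested terminal genes was called by limma, although 1 had an unadjusted p under 0.05. C8g read -6.14 to -4.71 in KO-labelled samples against -4.4 to -3.31 in WT-labelled samples (limma adjusted p = 0.0538). The regulators split. Clu (clusterin, which binds terminal complexes in fluid) was above background on 1 of 5 KO-labelled and 3 of 3 WT-labelled arrays. It read -7.23 to -5.93 in KO-labelled against -2.82 to 1.55 in WT-labelled samples (limma adjusted p = 0.00931, slide-blocked 0.127). Clu passed the filter through the WT-labelled arrays, which set its direction, so the p is no separate evidence of it. With normexp correction 0 of the 5 tested regulators were called lower. Like C3, Clu was highest in WT aorta and lowest of the WT-labelled samples in atrium. Cd59a, a membrane inhibitor of the terminal complex, was the 1 gene that was higher in KO-labelled samples, at 0.04 to 1.09 against -2.64 to -1.01, a difference of 2.16 (SE 0.49, limma adjusted p = 0.0211, slide-blocked 2.72 with 0.198). C2C12 read -0.18 and 0.38, overlapping the KO-labelled values.

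Of 4 tested receptors 2 were lower, where 16.1% of all genes tested were. C5ar2, a receptor for C5a, read -5.1 to -4.74 in KO-labelled samples against -1.75 to -1.14 in WT-labelled samples, a difference of -3.43 (SE 0.21, limma adjusted p = 0.000139). It was the 1 called of 18 genes of the wider set tested with the slide block (-3.12, limma adjusted p = 0.0117). In that fit 2.42% of all genes tested were lower. Cd93 was above background on 1 of 5 KO-labelled and 3 of 3 WT-labelled arrays, at -5.27 to -4.94 against -3.34 to -2.83 (limma adjusted p = 0.000821, slide-blocked -0.27 with 0.775). Like Clu it passed the filter through the WT-labelled arrays, which set its direction. C1qbp, a mitochondrial protein that can bind C1q, differed by -0.11 (limma adjusted p = 0.593).

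**Figure D3:**
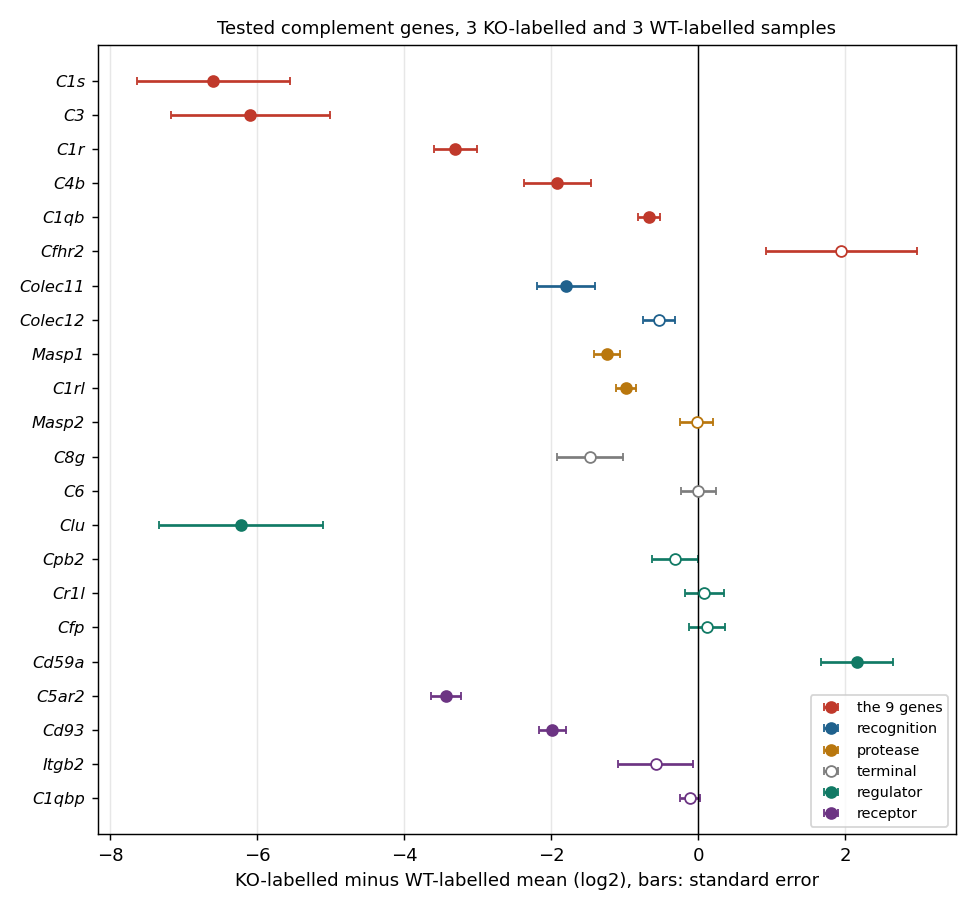
Difference between KO-labelled and WT-labelled means (log2, n = 3 each) for the 6 tested genes of the 9 (top, red) and the 16 tested genes of the wider set, grouped by role; bars are standard errors and filled circles had a limma adjusted p under 0.05. C1s (-6.6), Clu (-6.22) and C3 (-6.09) lie farthest left and Cd59a (2.16) farthest right of the filled circles. For C1s and Colec11, not above background in KO-labelled samples, the position is the signal as read. The same holds for Clu and Cd93 outside the 1 of 5 KO-labelled arrays above background.

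The genes whose pattern over the 8 samples was most like each tested gene were found by Pearson correlation among 15806 other genes, as a description over samples that share slides and scaling. For C3 they were Etnk2 (r = 0.993), Thumpd2 and Pura (both 0.992). C4b was most like C3 itself (0.986), then Nt5dc3 (0.986) and Etnk2 (0.985). C1r was most like Npdc1 (0.992), Igf1 (0.991) and Epm2aip1 (0.989), and C1s most like BB073606 (0.99), Bdkrb1 (0.988) and Impact (0.981). For Cfhr2 the genes given are Stx5a (0.981) and Adal (0.978). Igf1, a growth factor, read -5.46 to -4.77 in KO-labelled samples, -1.15 to 0.86 in WT-labelled samples and -3.08 to -1.8 in C2C12, the same order of groups as C1r. C1qb was most like Zscan10 (0.989), 4930519P11Rik (0.989) and the vomeronasal receptor gene Vmn1r201 (0.986), which read -4.73 to -4.43 in KO-labelled samples and -3.58 to -3.47 in WT-labelled ones.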

How the data were processed

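Each sample was 1 RNA on a one-colour array. Intensity values of single spots, as deposited, came from Agilent Feature Extraction 9.5.3.1 (submitters' processing notes). Background subtraction was done by that software and arrays were not scaled to each other, per the file headers. The authors' deposited value table is in log2 and equals log2 of the mean signal per probe within 0.01 for 99.8% of probes on each array, so it is unscaled. Control and outlier spots were left out, repeated spots averaged, and the 75th percentile of each array subtracted on the log2 scale. Pairs of arrays closer than the spot noise were joined, a choice made after the data were seen. Probes above background on at least 3 fitted arrays were tested, the brightest per gene, with limma 3.58.1 in R 4.3.3 (lmFit, eBayes) and Benjamini-Hochberg adjustment over all genes, and adjusted p under 0.05 was called. KO with WT used 6 samples, comparisons with C2C12 used 8. The script was tested on simulated data. All 9 genes, all listed complement genes that were called and up to 3 of the most correlated genes of each were named. A gene among these that falls under the rule is not reported here. The members and lists were chosen with earlier results of these data known. Probe names came from the array design and a RefSeq table of GRCm38.p6, and positions are mm8. The number of arrays limits the precision.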

Additional observations from a re-analysis of the deposited data

How the results depend on the processing

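Of 303 refits of single genes in the 3 comparisons, 239 kept direction and side of the threshold, 52 lost a call, 5 gained one and 7 changed sign, all 7 for differences near 0 between KO-labelled samples and C2C12. The sign changes were C4b with every array as its own sample (-0.07), with the slide block (-0.25) and without 1 sample (range over samples -0.25 to 0.27), and C1qb with normexp (0.06), with the slide block (0.11) and without C2C12 sample 2 (0.11, range over samples -0.44 to 0.11). For KO-labelled against WT-labelled, members called lower were 5, and 3 with normexp, 0 with the slide block and 2 to 4 without 1 sample. Members called higher were 0, and 1 (Cfhr2) with region as a block. All genes called were 4463, and 2793 with normexp, 892 with the slide block and 2644 to 5875 without 1 sample. For KO-labelled against C2C12, members called lower were 1, and 0 with normexp, without a filter, with the slide block and with the mean of a gene's probes, 2 with every array as its own sample and 0 to 2 without 1 sample. All genes called were 198, and 45 with normexp, 99 without a filter, 1631 with every array as its own sample, 27 with the slide block and 13 to 464 without 1 sample. For WT-labelled against C2C12, members called lower were 1, and 0 without a filter, 0 with the slide block and 0 to 1 without 1 sample. Members called higher were 3, and 0 with the slide block and 0 to 4 without 1 sample. All genes called were 4272, and 2508 with normexp, 6654 with every array as its own sample, 2281 with the slide block and 2274 to 5619 without 1 sample. The causes were not tested. Without a filter Cfb was called lower in KO-labelled samples (-2.16, limma adjusted p = 0.0312) although 1 of the arrays was above background. The labels carry no replicate numbers, and the fit that pairs the genotypes by region is the one with region as a block, in which 4 members were called lower. Signal near background limits Cfb, Serping1, Cd55, C1qb and C1s in KO-labelled samples. It also limits C3 and C4b there, with means of -4.37 and -3.92 against -3.89 for C1qb.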

Other observations

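Probes outside the 9 genes read parts of the same loci. A probe for an expressed sequence tag on the strand opposite C3 (mm8 chromosome 17, 56889377 to 56889436, plus strand) overlaps the end of the bright C3 probe. It read -7.12 to -5.92 in KO-labelled samples, none above background, against -5.99 to -4.69 in WT-labelled samples, where 1 of 3 arrays was above background. A probe for a predicted transcript beside C4a (chromosome 17, 34423157 to 34423218) read -4.59 to -4.16 in KO-labelled, -4.12 to -3.8 in WT-labelled and -4.17 to -3.98 in C2C12 samples.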
